A study of Mus musculus with 6 samples.

Results

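Transcription end site (TTS) peaks are ChIP-seq peaks that the deposited annotation places at the end of a transcript. Those described here carry an annotation beginning with TTS and have a deposited distance of more than 1000 bp to a transcription start site (TSS). There were 950 of them among 97783 peaks in 6 lists. By list they numbered 198 for Chd4 iKO, 7 for Chd4 Ctrl, 269 for Chd4 siSeh1, 16 for Chd4 siSCR, 255 for Seh1-flag and 205 for Seh1 Ctrl.

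The cells were primary cortical neural stem cells of newborn mice, cultured in the presence of EGF and bFGF. Chd4, the remodelling ATPase in the NuRD (nucleosome remodelling and deacetylase) complex, was the target in 4 libraries, and the nuclear pore protein Seh1, part of the Y complex, in the other two. The Chd4 iKO cells are labelled mutant and received 4-OH-TAM (4-hydroxytamoxifen). Chd4 Ctrl cells are labelled wild type and in growth medium, so effects of the deletion and of the drug cannot be told apart. Chd4 siSeh1 and Chd4 siSCR cells are both labelled wild type and were kept in growth medium. Seh1-flag cells are titled iKO and had 4-OH-TAM in their medium, but their genotype is given as wild type, and the name in their list's header begins with oe. Seh1 Ctrl cells are labelled wild type and were in growth medium. The names iKO and siSeh1 are read here as deletion and silencing of Seh1, with siSCR as the matching control. What drives Cre in the mutant cells is not stated in the labels. Every group was 1 library, so each difference is between 2 libraries, with no replicate check and no p-value. Tag totals were not part of the lists, which leaves the depth of each library unknown. The intervals given are exact (Clopper-Pearson) 95% intervals and cover counting error only. Peaks do not measure expression, so the labelled cell type was not checked against markers.

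A transcript's end is where the cleavage and polyadenylation machinery cuts the nascent RNA, after which RNA polymerase II runs on for some distance before it is released. The annotation program HOMER gives the name TTS to a window of 100 bp before to 1000 bp after such an end, so most of the window lies beyond the gene. NuRD couples nucleosome remodelling by Chd4 to histone deacetylation and is best known from promoters and enhancers, and nucleoporins of the Y complex are best known for building the pore.

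No genome sequence was used here, so sequences are shown for the members that the RefSeq tables of GRCm38.p6 cover. Of the peaks at a TTS, 2 had their highest point inside a RefSeq promoter window, and the 30 bases around that point are printed to show what lies there, with the base at the summit in capitals. The Pkm peak of Chd4 siSeh1 lies at chr9:59680134-59680163 and the Gm9758 peak of Seh1-flag at chr5:14909807-14909836, both read on the plus strand.
Pkm peak: ggcctttcccggggtGggcggtccccggag
Gm9758 peak: atattactcagtatcTggtccacaggatca
The Pkm summit stood at -5 bp from a RefSeq start of Gramd2, and the Gm9758 summit 7 bp after the start of the noncoding gene Gm52805. The Pkm summit is thus just upstream of that start, but inside Gramd2, whose span in the reference table begins earlier, at 59679833. The deposited annotation placed the nearest TSS 23781 bp and 5067 bp away, since neither of these starts is its nearest TSS.

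Another 4 members were annotated to the ends of microRNA genes. Their mature sequences are printed with the seed, bases 2 to 8, in capitals, because the strongest TTS peak of Chd4 iKO is among them.
miR-6976-5p: cAGGGAAGuugagaggaaaauug
miR-6976-3p: aUCUCCCUcccaacuccccag
miR-7063-5p: aUGAGAGGugcaggcugagcaca
miR-7063-3p: uGCUCUCUgccccucuuaag
miR-7a-5p: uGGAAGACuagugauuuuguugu
miR-7a-1-3p: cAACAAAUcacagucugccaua
miR-511-3p: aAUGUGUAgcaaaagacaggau
All 7 seeds differed. Mir6976 and Mir7063 had their peak in Chd4 iKO, and Mir7-1 and Mir511 in Seh1 Ctrl.

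TTS peaks made up about 1 in 100 peaks of every long list. Their share was 0.930% in Chd4 iKO (0.805 to 1.07%) and 0.607% in Chd4 Ctrl (0.244 to 1.25%). It was 0.999% in Chd4 siSeh1 (0.883 to 1.12%) and 0.614% in Chd4 siSCR (0.351 to 0.995%). Seh1-flag had 1.02% (0.901 to 1.15%) and Seh1 Ctrl 0.984% (0.854 to 1.13%). The intervals of the 2 lists overlapped in each of these comparisons. The TTS windows of the 28030 genes whose strand was known covered 1.13% of the sequence between the outermost peaks, counted at the last end of each gene. These windows also take in places within 1000 bp of a TSS, which TTS peaks as chosen here do not. The intervals of Chd4 Ctrl and Seh1-flag held that value. Those of Chd4 iKO, Chd4 siSeh1 and Chd4 siSCR lay below it, and that of Seh1 Ctrl ended below it by less than the rounding. Each peak carries 1 annotation, so a TTS peak never has the name of a repeat. With peaks in repeats left out of the lists, the shares became 1.79% in Chd4 iKO and 1.38% in Chd4 Ctrl, 1.71% in Chd4 siSeh1 and 1.22% in Chd4 siSCR, and 2.37% in Seh1-flag and 1.93% in Seh1 Ctrl. Promoter peaks, within 1000 bp of a TSS, spread far more widely, at 5.96% in Chd4 iKO, 0.607% in Chd4 Ctrl, 10.5% in Chd4 siSeh1, 15.0% in Chd4 siSCR, 1.53% in Seh1-flag and 1.35% in Seh1 Ctrl.

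**Figure D1:**
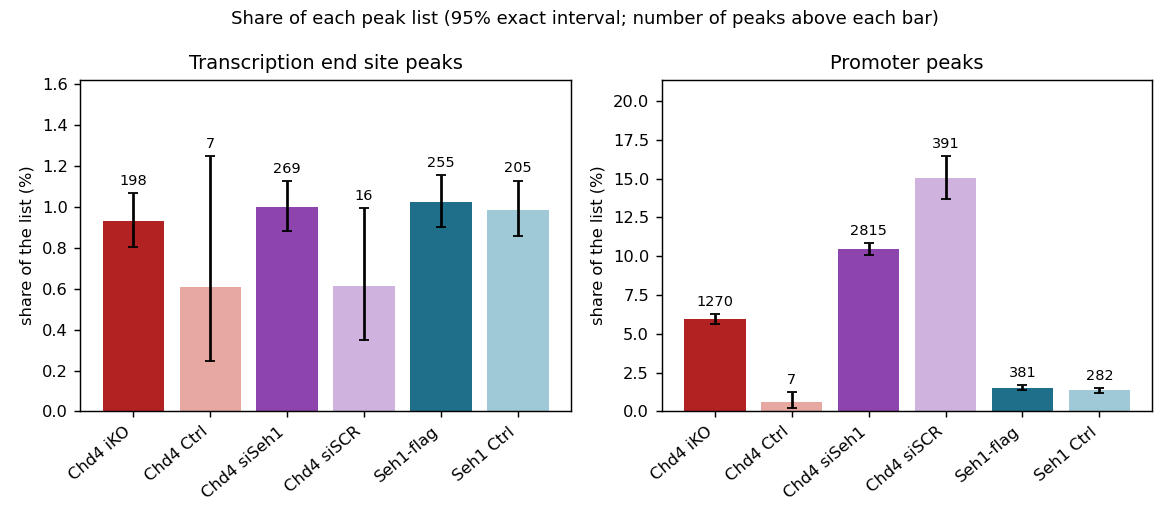
Share of each peak list, in percent, made up by TTS peaks (left) and by promoter peaks (right), with exact 95% intervals as error bars and the number of peaks above each bar. The TTS shares lie between 0.607% and 1.02%, whereas the promoter shares run between 0.607% and 15.0%.

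In number, TTS peaks followed the length of the lists. Chd4 iKO held 28.3 times as many as Chd4 Ctrl, with a list 18.5 times as long and 181 times as many promoter peaks. Chd4 siSeh1 held 16.8 times as many as Chd4 siSCR, with a list 10.3 times as long and 7.20 times as many promoter peaks. Seh1-flag held 1.24 times as many as Seh1 Ctrl, in a list 1.20 times as long. Among the 1154 highest scores of each list, the length of the Chd4 Ctrl list, TTS peaks numbered 9 in Chd4 iKO, 7 in Chd4 Ctrl, 1 in Chd4 siSeh1, 7 in Chd4 siSCR and 13 in Seh1-flag, against 473, 7, 933, 321 and 27 promoter peaks. Counted only among peaks more than 1000 bp from a TSS, those shares were 1.32% in Chd4 iKO, 0.610% in Chd4 Ctrl, 0.452% in Chd4 siSeh1, 0.840% in Chd4 siSCR and 1.15% in Seh1-flag, and every one of these intervals was wider than 1 percentage point.

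The distance rule took out few peaks. The members just inside it were the Mir6976 peak of Chd4 iKO, at 1001 bp from its TSS, and the Olfr1254 and Pkd2l1 peaks of Seh1 Ctrl, both at 1021 bp. Just outside it were the Vmn1r80 peak of Seh1-flag, at 1000 bp, and the Mir6976 peaks of Chd4 siSCR and Chd4 siSeh1, at 984 bp and 978 bp.

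The deposited score ranks the peaks of a list, on a scale that is not stated, and is 0 throughout Seh1 Ctrl. The median score percentile of TTS peaks within their own list was 48.1 in Chd4 iKO (38.7 to 60.9), 40.9 in Chd4 Ctrl (4.42 to 79.9), 43.3 in Chd4 siSeh1 (35.7 to 46.9), 42.1 in Chd4 siSCR (19.5 to 76.9) and 52.4 in Seh1-flag (46.4 to 60.7). Tied scores put the median of the whole list at a percentile of 48.1, 56.8, 46.9, 50.0 and 48.9 in the same order of lists, and the median of all peaks more than 1000 bp from a TSS at 48.1, 56.8, 46.9, 42.1 and 48.9. Each TTS interval held both values, in Chd4 siSeh1 at its upper end. Promoter peaks had median percentiles of 87.6, 29.8, 89.7, 84.2 and 48.9. In the highest 10% of scores stood 16 of the 198 TTS peaks of Chd4 iKO (8.08%, against 10.0% of its whole list) and 0 of 7 in Chd4 Ctrl (11.5% of the list). The counts were 15 of 269 in Chd4 siSeh1 (5.58%, against 10.1%), 2 of 16 in Chd4 siSCR (12.5%, against 9.9%) and 29 of 255 in Seh1-flag (11.4%, against 9.9%). For Chd4 siSeh1 the interval of that share, 3.15 to 9.03%, lay below the share of the whole list, and in the other lists it held that share. Of the peaks more than 1000 bp from a TSS, 7.62% stood in the highest scores in Chd4 iKO, 11.6% in Chd4 Ctrl, 5.43% in Chd4 siSeh1, 5.15% in Chd4 siSCR and 9.86% in Seh1-flag. Every TTS interval held the value of its list in this comparison, Chd4 siSeh1 included.

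**Figure D2:**
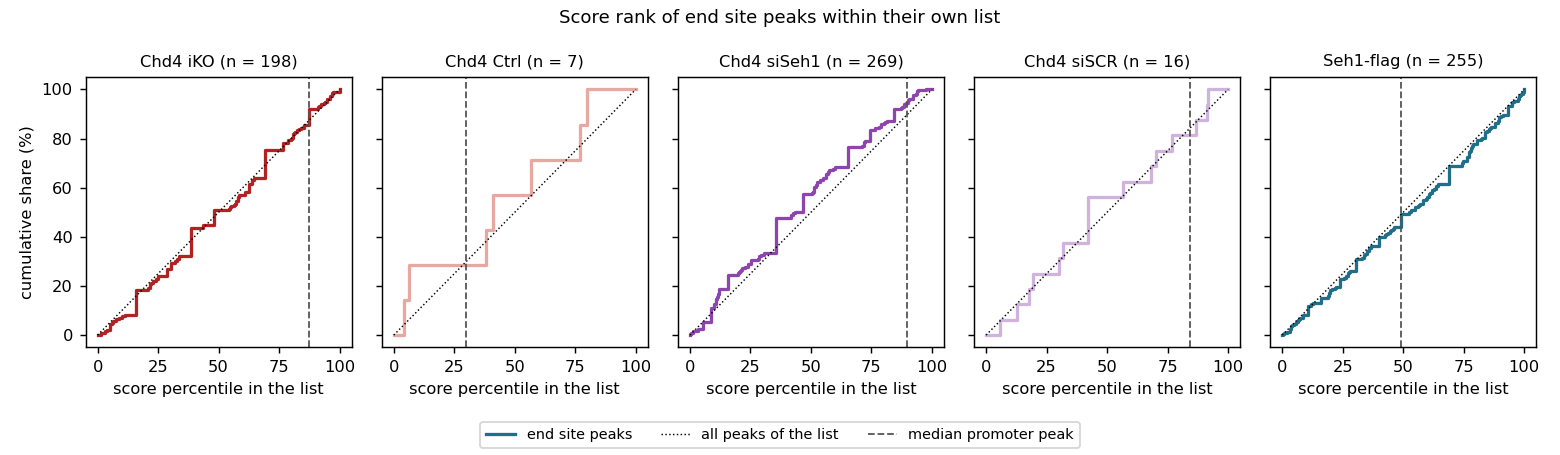
Cumulative share of TTS peaks (percent, vertical axis) by score percentile within their own list (horizontal axis), for the 5 lists with scores; the dotted line is what ranks spread evenly over the list give and the dashed line marks the median promoter peak. The curves run near the dotted line, at medians between 40.9 and 52.4, while the median promoter peak of Chd4 iKO, Chd4 siSeh1 and Chd4 siSCR stands above the 84th percentile.

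Only 2 TTS peaks of Chd4 iKO had scores far above the rest. The first, with a score of 33.4 and rank 2 of 21294, was the peak at chr17:46552888, 939 bp past the end of Mir6976. It lies within Srf, the gene of serum response factor, 5379 bp from its start, and the name TTS comes from the small microRNA gene that Srf contains. Chd4 siSeh1 had a peak 23 bp from it, with a score of 45.3 and rank 3, and Chd4 siSCR one 17 bp from it, with a score of 22.5 and rank 4. In Chd4 Ctrl, Seh1-flag and Seh1 Ctrl no peak lay within 2000 bp. This place therefore ranked in the first 4 of 3 Chd4 lists, although the distance rule admitted it in only 1 of them.

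The second, with a score of 30.1 and rank 4, was at chr11:55123874, 941 bp past the end of Slc36a3, an amino acid transporter gene. It lies inside Mup-ps22, a pseudogene of the major urinary proteins, the lipocalins secreted by mouse liver. None of the other lists had a peak within 2000 bp. The next scores in Chd4 iKO were 6.49 at Rhox1, a homeobox gene of the reproductive Rhox cluster, and 6.40 at both the antisense RNA Chn1os3, inside Chn1, and the olfactory receptor gene Olfr885.

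In Chd4 Ctrl the 7 peaks had scores of 2.34 to 4.44. They lay at Btbd35f1, the olfactory receptor gene Olfr872, Gm16070, Lrrc55, Bpnt1, Gm9732 and Pira2. None ranked above the 80th percentile. Bpnt1, a nucleotidase gene, had its peak 989 bp past its end, at a deposited distance of -4278 bp from the start of Eprs, and Lrrc55 had its at -8 bp from its end, inside the gene.

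Chd4 siSeh1 had its highest TTS score, 9.11, at Hsd17b14, which encodes a hydroxysteroid dehydrogenase. This peak, at chr7:45568236, stood 915 bp past the gene's end, inside the noncoding gene 0610005C13Rik and at -1917 bp, that is upstream, from the deposited TSS of Bcat2, the mitochondrial branched-chain aminotransferase. Chd4 siSCR had its own highest TTS score, 6.41, 84 bp away. No other list had a peak there within 2000 bp. Below Hsd17b14 in Chd4 siSeh1 came Rasal1, a Ras GTPase-activating protein gene, at 5.93, followed at 5.66 by the ephrin receptor gene Epha8, the acetyl-CoA synthetase gene Acss1 and the phosphatase gene Ptpn6. Epha8 was the only gene with 2 TTS peaks in a Chd4 list; the other gene with 2 in any list was D630023F18Rik, in Seh1 Ctrl.

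In Seh1-flag 4 of the 5 highest TTS scores came from a single part of chromosome 5. They were 24.2 at Speer4cos, 20.4 at Speer4e, 17.4 at 4930572O03Rik and 16.9 at Gm10354; Speer genes are a rodent family of testis-expressed glutamate-rich proteins. The fifth, 21.7, was at Slc25a2, a mitochondrial carrier gene on chromosome 18. Between 14800001 and 15800000 on chromosome 5, Seh1-flag had 7 TTS peaks among 226 peaks and Chd4 siSCR 3 among 89. Chd4 iKO, Chd4 Ctrl, Chd4 siSeh1 and Seh1 Ctrl had 0 TTS peaks there, among 18, 0, 9 and 14 peaks. The Speer copies resemble each other closely, so reads could be assigned to a wrong copy, and how the authors treated such reads is not stated; the same holds for Dux and Pisd-ps3 below.

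Seh1 Ctrl peaks were intervals with no ranking, and its TTS peaks were 240 to 568 bp wide, with a median of 266 bp, against 273 bp over its whole list. The widest was at the lncRNA gene C730014E05Rik (568 bp), followed by Lhfpl5, a tetraspan gene of hair cells, with 559 bp, then 4930467E23Rik, 1700029J03Rik and AI506816.

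TTS peaks were seldom found again in another list. A TTS peak counted as shared when it overlapped any peak of another list by at least 1 bp, after summits were widened to 240 bp. In Chd4 iKO 6 of 198 were shared (3.03%, 1.12 to 6.48%), against 6.36% of its whole list. In Chd4 Ctrl 0 of 7 were shared, which allows up to 42.9%, against 15.9% of the list. The counts were 4 of 269 in Chd4 siSeh1 (1.49%, 0.407 to 3.76%, against 5.1%) and 5 of 16 in Chd4 siSCR (31.2%, 11.0 to 58.7%, against 24.8%). They were 4 of 255 in Seh1-flag (1.57%, 0.429 to 3.97%, against 2.54%) and 2 of 205 in Seh1 Ctrl (0.976%, 0.118 to 3.48%, against 2.61%). Promoter peaks were shared at 58.6% in Chd4 iKO, 28.4% in Chd4 siSeh1 and 85.4% in Chd4 siSCR, above the intervals of the TTS peaks there. In Chd4 Ctrl 0 of 7 promoter peaks were shared, in Seh1-flag 2.89%, inside the TTS interval, and in Seh1 Ctrl 4.26%, above it. Set beside all peaks more than 1000 bp from a TSS, of which 3.05%, 16.0%, 2.38%, 14.0%, 2.53% and 2.58% were shared in the 6 lists in the order above, each TTS interval held the value of its list. Without the 43 bins of 200 kb that hold 5 or more peaks of Chd4 Ctrl or of Chd4 siSCR, the shared TTS peaks were 1 of 11 in Chd4 siSCR and 1 of 244 in Seh1-flag. With windows of 1000 bp in place of 240 bp, 8.59% were shared in Chd4 iKO, 6.32% in Chd4 siSeh1 and 6.67% in Seh1-flag.

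**Figure D3:**
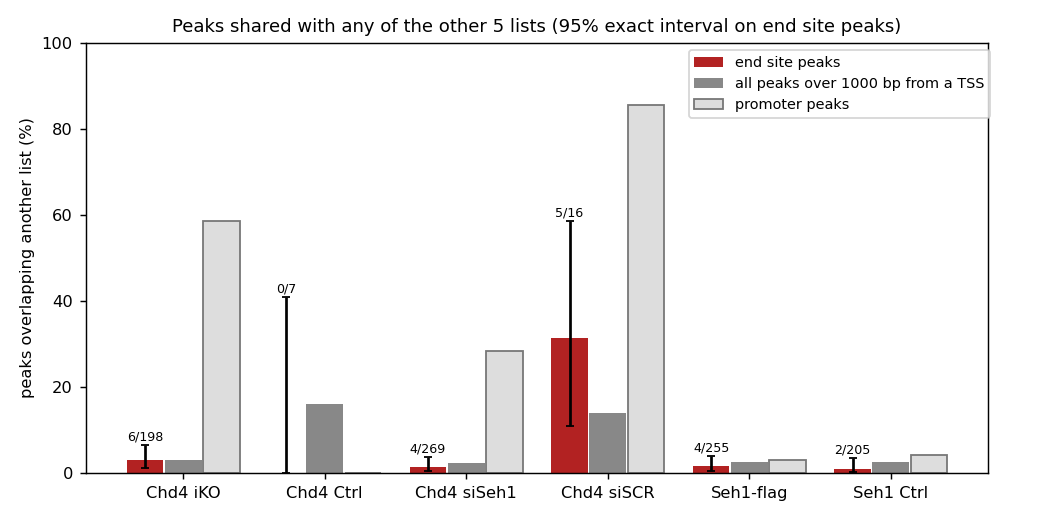
Percent of peaks overlapping a peak of any of the other 5 lists, for TTS peaks (with exact 95% intervals and counts), all peaks more than 1000 bp from a TSS, and promoter peaks, by list. TTS peaks and other peaks away from promoters stand at similar low values in the long lists, while promoter peaks of Chd4 iKO, Chd4 siSeh1 and Chd4 siSCR reach 58.6%, 28.4% and 85.4%.

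Between a perturbed list and its control, 0 of the 198 TTS peaks of Chd4 iKO overlapped a Chd4 Ctrl peak, which allows up to 1.52%, against 0.0657% of the whole list. In Chd4 siSeh1 2 of 269 overlapped a Chd4 siSCR peak (0.743%, 0.0902 to 2.66%, against 1.53% of the list), at Hsd17b14 and Pisd-ps3. Between the Seh1 lists, 0 of 255 TTS peaks of Seh1-flag overlapped a Seh1 Ctrl peak, which allows up to 1.18%, against 0.705% of the list. In Chd4 iKO 4 of 198 overlapped a peak of Chd4 siSeh1 (2.02%, 0.553 to 5.09%, against 4.79% of the list), at Mir6976, Pisd-ps3, 9430038I01Rik and Adgrb1. The Adgrb1 peak met a Chd4 siSeh1 peak annotated to the gene's 3' untranslated region, 214 bp away.

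The other shared places were few and often repeated in the genome. Pisd-ps3, a transcribed pseudogene on an unplaced sequence, had a TTS peak in 3 lists, with scores of 3.69 in Chd4 iKO, 4.71 in Chd4 siSeh1 and 4.66 in Chd4 siSCR. Dux, the double homeobox factor active in the earliest embryo and present in many near-identical copies, had one in Chd4 iKO (3.60), Chd4 siSCR (5.52) and Seh1-flag (4.76), within 42 bp. Chd4 siSCR and Seh1-flag shared 3 of the 16 TTS peaks of Chd4 siSCR (18.8%, 4.05 to 45.6%), at Dux, Speer4cos and 4930572O03Rik. That interval held the 6.83% of its whole list and the 7.81% of its peaks more than 1000 bp from a TSS. Gm4541 was shared by Chd4 iKO and Seh1-flag, and 9430038I01Rik by Chd4 iKO and Chd4 siSeh1. Nmbr, the receptor for neuromedin B, had a peak 316 bp past its end in Chd4 siSeh1 and one 12 bp from it in Seh1 Ctrl. At Vmn2r116, a vomeronasal receptor gene, the Seh1 Ctrl peak met peaks of Chd4 iKO and Chd4 siSeh1 that were annotated as intergenic.

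By gene, the lists hardly met either. A gene was found for 943 of the 950 peaks, and they made 919 genes. Of these, 898 had a TTS peak in 1 list, 20 in 2 lists and 1, Pisd-ps3, in 3. The 7 peaks without a gene include the 3 at Dux, whose transcript had no match in the reference table, so Dux is a further gene with peaks in 3 lists and is not in the gene counts. Chd4 iKO and Chd4 siSeh1 had 4 genes in common, 2.04% of 196 and 1.51% of 265, namely 9430038I01Rik, Gm2101, Pisd-ps3 and Pramel5. Of all protein-coding genes, 1.03% had a TTS peak in Chd4 siSeh1 and 0.763% in Chd4 iKO. The shares in common do not lie below these values, so they do not show that the lists met less than the background. With TTS peaks at any distance from a TSS the count was 9, and with scores of at least 3 it was 2. Only in 9430038I01Rik and Pisd-ps3 did the 2 peaks overlap; those of Pramel5, from a clustered family of PRAME-like genes, stood 36 bp and 798 bp past its end, and those of Gm2101 lay at different copies. Genes with a TTS peak in Chd4 iKO and none in Chd4 Ctrl numbered 196 (0.392% of all genes). Those in Chd4 siSeh1 and not in Chd4 siSCR numbered 262 (0.524%), and 3 genes were in both sets. Seh1-flag and Seh1 Ctrl had 0 genes in common among 254 and 204. With a TTS peak at only 0.826% of coding genes in Seh1 Ctrl, that 0 cannot be told from the background. Chd4 siSeh1 and Seh1-flag had 5, among them Cdyl, a chromodomain corepressor, at 413 bp and 80 bp past its end, and Asphd1, at 968 bp and 143 bp. Ppm1d, the phosphatase that opposes p53 signalling, had a peak in Chd4 iKO 242 bp past its end and one in Seh1-flag at 814 bp.

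**Figure D4:**
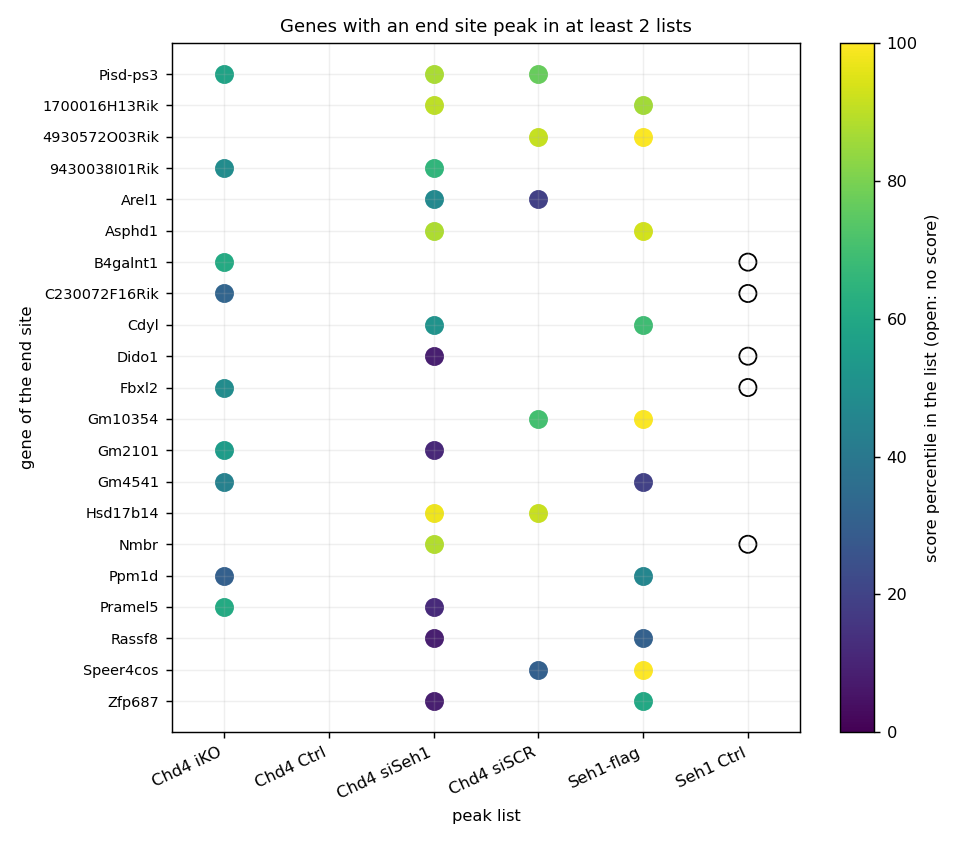
Genes matched to the reference table with a TTS peak in at least 2 lists (rows) against the 6 lists (columns), with colour for the score percentile of the peak in its list and open circles where the list has no scores. Dux, in 3 lists, had no match and is not drawn. Of the 21 genes drawn, 1 has peaks in 3 lists, none has one in Chd4 Ctrl, and the values run between low and high percentiles.

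Most TTS peaks belonged to protein-coding genes, 802 of 943 (85.0%, 82.6 to 87.3%). There were 114 at lncRNA genes, 21 at transcribed pseudogenes, 4 at microRNA genes, 1 at a ribosomal RNA gene and 1 at an RNase P RNA gene. The coding share was 85.2% in Chd4 iKO, 71.4% in Chd4 Ctrl, 85.3% in Chd4 siSeh1, 73.3% in Chd4 siSCR, 82.7% in Seh1-flag and 88.8% in Seh1 Ctrl, and all 6 intervals overlapped. Most peaks of any kind were also nearest to a coding gene. By the deposited type of that gene, 83.3% of TTS peaks were coding in Chd4 iKO, against 78.3% of all its peaks. The values were 84.4% against 80.1% in Chd4 siSeh1, 81.2% against 79.1% in Seh1-flag and 88.8% against 77.7% in Seh1 Ctrl. Only in Seh1 Ctrl did the TTS interval (83.6 to 92.8%) lie above the value of the whole list. Of the 21900 protein-coding genes in the reference table, a TTS peak was found at 0.763% in Chd4 iKO, 0.0228% in Chd4 Ctrl, 1.03% in Chd4 siSeh1, 0.0502% in Chd4 siSCR, 0.959% in Seh1-flag and 0.826% in Seh1 Ctrl. The genes had a median length of 19441 bp (17428 to 21805 bp), against 17146 bp over all protein-coding genes. The rule of more than 1000 bp from a TSS admits fewer peaks at the ends of short genes. This comparison is therefore not between like sets of genes.

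Among gene lists chosen for these cells, 12 of 348 genes had a TTS peak in any list (3.45%), against 3.58% of all protein-coding genes, so the lists together stood near the background. Of 24 neural stem cell factors, 1 of the 14 gene lists, 4 had one (16.7%, 4.74 to 37.4%), an unadjusted interval above that background. The RNA-binding protein gene Msi1 had it in Chd4 iKO, with a score of 4.12. Notch1, the receptor, Otx2, a forebrain homeobox gene, and Nr2e1, an orphan nuclear receptor that maintains neural stem cells, had it in Seh1-flag, with scores of 3.62, 3.85 and 3.85. These 3 genes made 12.5% of the 24 (2.66 to 32.4%), against 0.959% of coding genes in Seh1-flag. Their Seh1-flag scores were low in the list, at percentiles of 24.0 for Notch1 and 30.5 for both Otx2 and Nr2e1. The gene lists were chosen with earlier results of these data known. Neither interval for the neural stem cell factors is adjusted for reading 14 gene lists in every peak list. Whether these factors have more TTS peaks than a gene list picked beforehand would have was therefore not tested. Of 31 listed nucleoporin genes Ndc1 and Nupl1 had a TTS peak in Chd4 siSeh1, both inside the gene, at -1058 bp and -12706 bp from its last end. The nucleoporin-like gene Nupl2, not among the 31, had one in Chd4 iKO, 377 bp past its end. Its score was 4.89, at the 91.0th percentile. Slc1a2, the glutamate transporter of astrocytes, had one in Seh1-flag with a score of 10.2, at the 97.3rd percentile and at -12524 bp from the last end of the gene. Of 14 oligodendrocyte markers Gpr17 had one in Seh1 Ctrl, and of 26 genes of other remodelling and Polycomb complexes Arid1b, a BAF subunit, had one in Seh1 Ctrl. Of 29 genes from the Wnt, Notch and Shh pathways Wnt7b had one in Chd4 siSeh1, of 30 ribosomal protein genes Rpl32 had one in Seh1-flag, and of 40 genes abundant in liver Serpina1d had one in Chd4 siSeh1. None was found at any of 35 cell cycle genes, 15 NuRD genes, 30 neurogenic and neuronal genes, 14 microglia and endothelial markers, 23 listed p53 targets or 24 factors of 3' end processing. The p53 list was not complete. It left out Ppm1d, described above, and Sfn, which had a TTS peak in Chd4 siSeh1 with a score of 3.79, 786 bp past its end. Seh1l, Chd4 and Cdkn1a, the last being the gene of the cell cycle inhibitor p21, had no TTS peak in any list. The nearest peak to the end of Seh1l stood 4513 bp past it in Chd4 iKO, 4502 bp in Chd4 siSeh1 and 4521 bp in Chd4 siSCR. In the other lists it was further away. The nearest to the end of the gene Chd4 was at -632 bp, on the gene side, in Chd4 siSeh1, and further away in the other lists. The nearest to the end of Cdkn1a was 2312 bp past it in Chd4 Ctrl, 2223 bp in Chd4 siSCR and 2262 bp in Seh1-flag. It was far off in Chd4 iKO (148275 bp), Chd4 siSeh1 (-87781 bp) and Seh1 Ctrl (466844 bp).

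Among large gene families, the receptors stood near the background. Of 1110 olfactory receptor genes 43 had a TTS peak in any list (3.87%, 2.82 to 5.18%), and of 355 vomeronasal receptor genes 11 (3.10%, 1.56 to 5.48%), both beside the 3.58% of all protein-coding genes. Of 397 Zfp genes, which encode zinc finger proteins, 19 had one (4.79%, 2.91 to 7.37%). By list these were 1 in Chd4 iKO, 0 in Chd4 Ctrl, 6 in Chd4 siSeh1, 0 in Chd4 siSCR, 11 in Seh1-flag and 2 in Seh1 Ctrl. The 11 Zfp genes of Seh1-flag, 2.77% of the family (1.39 to 4.90%), stood against 0.959% of coding genes in that list, which lay below that interval, and the highest score was 10.4 at Zfp114. Of 1198 microRNA genes 4 had one (0.334%, 0.0910 to 0.853%), the lowest of these shares; most of the TTS window of so short a gene lies within 1000 bp of its own start, where the distance rule admits no peak. These families were picked after their values were seen.

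Where the peaks lay relative to the gene was read for the 898 members with a known strand on a placed chromosome. Of these, 776 were inside the window of 100 bp before to 1000 bp after the last end of the gene. Another 115 were upstream of it, of which 108 lay inside their own gene and 7 outside it, and 7 lay beyond the window. The 7 upstream and outside, at Fam177a2, Gm10488, Gm14151, Gm16381, Gm23284, Gm3500 and Gml, do not lie in the gene as the reference table places it. Within the window the median was 460.5 bp past the end (408 to 483 bp), near the window's middle. It was 464 bp in Chd4 iKO, 197 bp in Chd4 Ctrl, 480 bp in Chd4 siSeh1, 524 bp in Chd4 siSCR, 437 bp in Seh1-flag and 413 bp in Seh1 Ctrl. Still inside the gene were 70 of 776 (9.02%, 7.10 to 11.3%), where the inner part is 9.09% of the window. That share was 13.8% in Chd4 iKO (8.82 to 20.1%) and 5.74% in Seh1-flag (upper bound 9.81%), with both intervals holding 9.09% and overlapping each other.

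Since the name TTS covers mostly the outer side, all peaks around the ends of 17492 protein-coding genes were counted, per kb, to show the gene side too. The distance rule was not applied to them, so promoter peaks could be counted. Those made up 5.96% of Chd4 iKO, 10.5% of Chd4 siSeh1, 1.53% of Seh1-flag and 1.35% of Seh1 Ctrl. Their part in the counts below was not tested, and the counts are given without intervals. Chd4 iKO had 212 peaks in the last kb inside the gene, 152 in the first kb beyond it, and 146 and 143 per kb in the 4 kb further in and further out. The higher count inside therefore fell outside the window that defines TTS peaks, apart from its last 100 bp. Chd4 siSeh1 was level, with 225, 225, 223 and 209 in the same order. Seh1-flag had 117, 167, 153 and 168, its lowest count being inside the gene end. Seh1 Ctrl had 122, 132, 112 and 114. In Chd4 Ctrl the counts were 11, 5, 5 and 3.5, and in Chd4 siSCR 29, 16, 20.5 and 29.2, both too small to order. In Seh1 Ctrl alone did the first kb beyond the gene hold more peaks than both the last kb inside and the second kb out, which held 109. Chd4 siSeh1 missed this only by the tie of 225 and 225, with 212 in its second kb out. Whether the order in Seh1 Ctrl exceeds counting error was not tested.

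**Figure D5:**
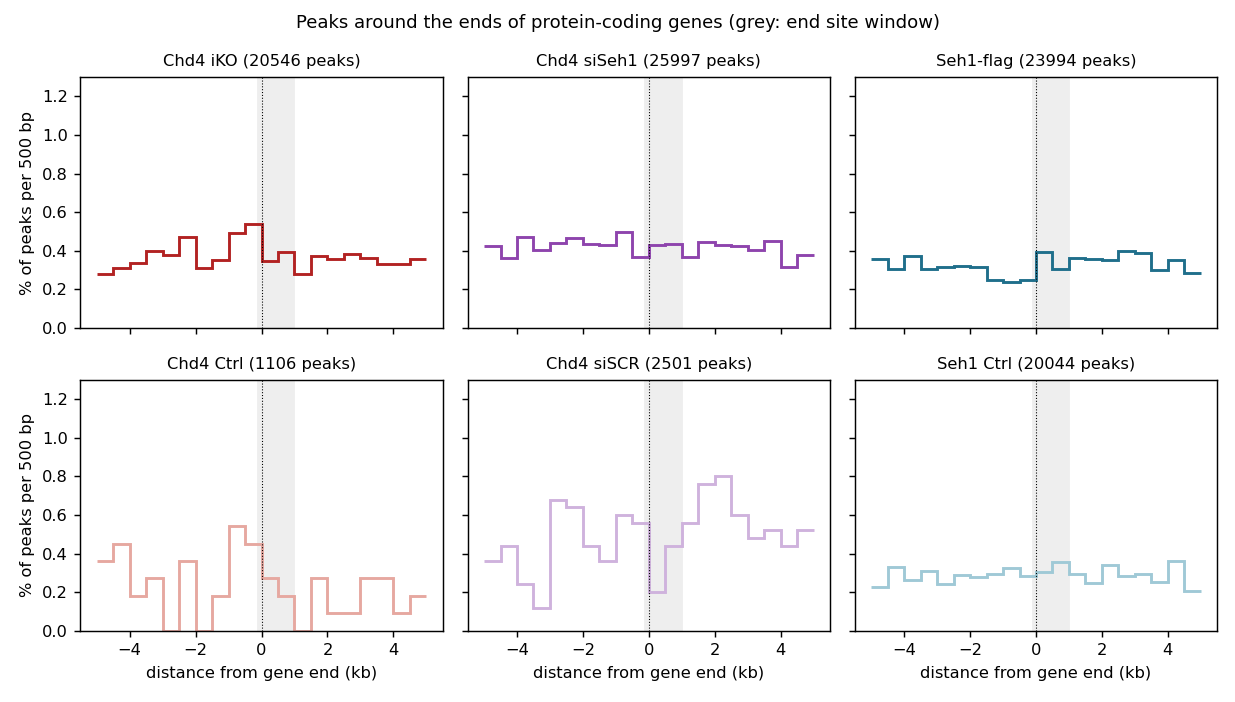
Percent of each list's peaks per 500 bp (vertical axis) by distance from the end of protein-coding genes (horizontal axis, kb; negative is inside the gene), with the TTS window in grey. Chd4 iKO is highest in the last kb inside the gene, with 212 peaks against 152 in the kb beyond, and Seh1-flag is lowest there, with 117 against 167.

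Of the 898 placed members, 562 lay between genes (62.6%, 59.3 to 65.8%), 157 inside their own gene only, 158 inside another gene only and 21 inside both. The nearest TSS was that of another gene for 392 of 943 (41.6%), with 238 of these upstream of that start and 154 downstream. The median distance to the nearest TSS was 9030 bp (8154 to 10185 bp), and 284 of 950 lay within 5000 bp of one.

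A promoter peak at the same gene in the same list accompanied few TTS peaks. In Chd4 iKO 11 of 167 coding genes with a TTS peak also had one (6.59%), against 5.18% of all coding genes. Among them was Coq8a, for coenzyme Q synthesis, with scores of 4.72 at the TTS and 5.49 at the promoter. Others were Sfxn5, a mitochondrial carrier (4.62 and 6.55), St3gal5 (4.39 and 2.33), Mthfd1, of folate metabolism (3.93 at both), and Tnrc6b, of microRNA silencing (3.17 and 11.8). In Chd4 siSeh1 26 of 226 did (11.5%, against 11.8%), including the glycolytic gene Pkm (5.28 and 3.79), Asphd1 (4.83 and 4.85), the single-strand DNA binding gene Rpa2 (4.58 and 7.97) and Birc6, an inhibitor of apoptosis (4.58 and 5.66). In Seh1-flag 8 of 210 did (3.81%, against 1.33%), including Ctsc, a lysosomal protease (7.93 and 4.50), Zbtb24 (6.37 and 6.12) and several of the Speer cluster on chromosome 5, such as Speer4d and Gm10354. In Seh1 Ctrl 2 of 181 did (1.10%, against 1.02%), the tubulin-binding gene Stmn1 and the casein gene Csn1s1. In Chd4 siSCR 1 of 11 did (9.09%, against 1.63%), and in Chd4 Ctrl 0 of 5 (against 0.0183%). For the long Chd4 lists the shares stood near those of all coding genes.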

How the data were processed

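ChIP-seq of Chd4 (4 libraries) and Seh1 (2 libraries) was deposited as peak lists, annotated by HOMER on mm10 per the file headers. The submitters' processing notes name Bowtie2 and HOMER with no version, and human builds. The peak caller, threshold, input and any pooling are not stated. In 5 lists the authors deposited single positions with a peak score of unstated scale, used here only to rank peaks within a list. Seh1 Ctrl holds intervals with scores of 0. Positions were widened to 240 bp, and overlaps of at least 1 bp were counted in pandas 2.3.3 and numpy 2.4.6 (Python 3.11.15), checked with bedtools 2.31.1 and tested on simulated data. Intervals came from scipy 1.17.1, those of medians from order statistics, and a share of 0 is given with the limit of 3 counts.

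Transcripts were matched to the RefSeq table of GRCm38.p6 (99.3% of 950 peaks). Strand came from RefSeq for 736 peaks and from the deposited distances for 166, and 52 peaks were not placed. Named genes are the 5 highest scores per list (widest peaks in Seh1 Ctrl), up to 10 genes in both Chd4 iKO and Chd4 siSeh1, up to 10 shared places, up to 5 genes per list with TTS and promoter peaks, up to 6 per gene list for 14 lists, and Seh1l, Chd4 and Cdkn1a. Other genes were named after their values were seen. The members and lists were chosen with earlier results of these data known. Alternatives changed the distance rule, window, score, list length, chromosomes, repeats and dense bins.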

Additional observations from a re-analysis of the deposited data

How the results depend on the processing

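Recomputing the results with other settings gave 123 values, and 98 of them stayed within the interval of the value reported, or within 1.5 times for the gene count. Several of these values had little room to move, so that count does not measure robustness. For Chd4 Ctrl the overlap of 0 of 7 allows up to 42.9%, and for Chd4 siSCR the overlap interval was 11.0 to 58.7%. The medians of score percentile and of position stayed within their intervals in every list. For position the only alternative kept the protein-coding genes, which are most of the same peaks. No paired analysis was possible because each group had 1 library. Counting every TTS peak, whatever its distance, gave a share of 1.14% in Chd4 siSeh1 and 9 genes common to Chd4 iKO and Chd4 siSeh1. Requiring over 5000 bp from a TSS gave shares of 0.634% in Chd4 iKO, 0.709% in Chd4 siSeh1, 0.717% in Seh1-flag and 0.691% in Seh1 Ctrl, since fewer peaks qualify. A score of at least 3 left 2 common genes. Lists cut to 1154 peaks gave TTS shares of 0.780% in Chd4 iKO and 0.0867% in Chd4 siSeh1, 0 common genes, and shared TTS peaks of 11.1% (1 of 9) in Chd4 iKO, 100% (1 of 1) in Chd4 siSeh1, 7.69% (1 of 13) in Seh1-flag and 0 of 205 in the uncut Seh1 Ctrl list. Leaving out bins dense in control peaks lowered the shared TTS peaks to 9.09% (1 of 11) in Chd4 siSCR and 0.410% (1 of 244) in Seh1-flag. Leaving out peaks annotated to repeats removed 0 TTS peaks but shortened the lists, giving shares of 1.79% in Chd4 iKO, 1.38% in Chd4 Ctrl, 1.71% in Chd4 siSeh1, 1.22% in Chd4 siSCR, 2.37% in Seh1-flag and 1.93% in Seh1 Ctrl. With a window of 1000 bp, 8.59% of TTS peaks were shared in Chd4 iKO, 6.32% in Chd4 siSeh1 and 6.67% in Seh1-flag. Depth was unknown, so places without a peak may be places not detected.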

Other observations

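Some ends of genes were also near starts that the deposited annotation did not count. Of 930 TTS peaks on chromosomes with RefSeq promoter windows, 8 lay within 1000 bp of a RefSeq start, in 3 cases in Chd4 iKO, 0 in Chd4 Ctrl, 2 in Chd4 siSeh1, 0 in Chd4 siSCR, 2 in Seh1-flag and 1 in Seh1 Ctrl. Beside Gramd2 and Gm52805 these were the starts of the lncRNA genes Gm40443, Gm52677 and LOC108169085 (Chd4 iKO, at the ends of Mthfd1, Cfap57 and 8430423G03Rik), Gm51863 (Chd4 siSeh1, at Trim11), Gm20506 (Seh1-flag, at H2-Ob) and Gm51481 (Seh1 Ctrl, at Abcc8).

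On some chromosomes TTS peaks had a larger share than the whole list. Chromosome 7 held 30 of the 198 in Chd4 iKO (15.2%, against 6.73% of the whole list), chromosome 4 held 31 of 269 in Chd4 siSeh1 (11.5%, against 6.25%), and chromosome 2 held 27 of 255 in Seh1-flag (10.6%, against 6.11%). These chromosomes were picked after their values were seen. Over all lists, chromosome 7 held 9.58% of TTS peaks, against 6.10% of all peaks, and X held 2.95%, against 5.83%. The number of gene ends on each chromosome was not counted, so whether these shares differ from those of gene ends was not tested.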
